A study of Mus musculus with 27 samples.

Results

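The genes described here code for the proteins of the cytosolic ribosome, measured in the liver of mice fed 9 diets. A gene was a member when at least 1 probe of the Affymetrix mouse genome array was paired with a single gene symbol, and that symbol began with Rpl or Rps and a digit, or with Rplp and a digit, or was Rpsa. Kinases of the Rps6k family and pseudogene symbols were left out. By this rule 50 of the 18194 genes on the array were members, through 106 probes. A gene was kept for testing when a probe's mean exceeded an intensity of 100 in at least 1 diet, which 42 of the 50 members and 6478 of all genes did. The 8 members that did not were Rpl12, Rpl14, Rpl39, Rpl39l, Rpl3l, Rps16, Rps25 and Rps27. The kept members held 21 proteins of the large subunit, 20 of the small subunit and Rps19bp1, a nucleolar partner of Rps19 that the symbol rule takes in although it is no part of the ribosome.

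The cytosolic ribosome reads messenger RNA in its small subunit and joins amino acids in its large subunit. Its proteins are made in matched amounts, and their messenger RNAs carry a run of pyrimidines at the 5′ end, the TOP motif, through which mTORC1 signaling sets how strongly they are translated. In liver, ribosome content follows food and protein supply. Some members have other roles as well: Rps6 is the protein that S6 kinases phosphorylate, Rpl5 and Rpl11 bind Mdm2 when they are free of the ribosome, and several members have a second copy in the genome, such as Rpl22l1 for Rpl22 and Rps27l for Rps27.

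Livers came from male C57BL/6 mice aged 10 weeks that were fed 1 diet for 3 weeks, with 3 mice and 3 arrays for each of the 9 diets. The AIN-93M purified diet was the control. The other diets were lab chow of natural ingredients, a diet with 60% fructose, a high-fat diet, a Western diet rich in saturated fat and sucrose with 42% of calories from fat, an atherogenic diet with fat, sucrose, cholesterol and cholic acid, a diet deficient in essential fatty acids (EFA), a low n-3 diet with 7% sunflower oil, and diet restriction, in which mice received 75% of the amount of lab chow eaten freely. By the study's account the Western diet holds cholesterol too, more than the control diet and less than the atherogenic diet. A DHA supplement stands in the titles of the low n-3 samples, and sunflower oil in their description alone, by which they were grouped. The source of each liver is a separate mouse of an inbred strain, and 3 mice a diet limit the precision of every value.

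The deposited values were log2 intensities, normalized by the authors with GCRMA. A gene's value was the mean of its kept probes. Differences are log2 differences between diet means, with a standard error (SE) and a p-value from limma fitted over all 27 arrays and adjusted by Benjamini and Hochberg over all 6478 genes and all 8 diets together. Diet restriction was also set against lab chow, the diet it limited, and the atherogenic diet against the Western diet, with p-values adjusted for each pair on its own. A gene was called higher or lower at an adjusted p below 0.05. The 8 diets were compared with the same 3 control arrays, so a deviation of the control mean moves all of them together.

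Control probes and cell type markers differed between some diets. Their part in the results was not tested, and the actin gap was only entered as a covariate in a fit below. The control probe in the middle of 18S rRNA read 10.52 to 10.80 on the high-fat arrays and 11.06 on high-fructose replicate 1, against 13.11 to 14.73 on the other arrays. The gap between the 3′ and 5′ actin probes was 3.08 to 3.60 on the control arrays, 2.52 to 2.80 on high fat, 2.72 to 3.09 on Western, 3.04 to 3.61 on atherogenic, 2.95 to 3.50 on diet restriction and 2.64 to 3.39 on EFA deficient, where 2 of the 3 arrays lay within or below the Western range. All 8 hepatocyte markers were detected, at mean levels of 15.12 to 15.59 over all arrays. The level was 15.12 to 15.31 on control, 15.27 to 15.36 on lab chow and 15.34 to 15.59 on diet-restriction arrays. The mean level of the 12 Kupffer cell markers, 9 of them detected, was 6.82 to 7.24 on control and 5.99 to 6.51 on Western arrays. It was 8.05 to 8.90 on atherogenic and 5.86 to 7.30 on diet-restriction arrays, the latter overlapping control. Markers of T and NK cells, B cells, cholangiocytes and pancreas were not above the detection level in any diet. Under diet restriction 1 marker each of Kupffer cells (Clec4f), endothelium (Stab1), stellate cells (Col3a1) and red cells (Alas2) was lower than control. Their differences were -1.59, -0.73, -2.14 and -2.23, and the median of the 9 detected Kupffer cell markers was -0.95. Lab chow lay below control as well, with medians of -0.76, -0.62 and -0.55 for Kupffer cell, endothelium and stellate cell markers. There 1 Kupffer cell and 2 endothelium markers were lower. Against lab chow, diet restriction had no Kupffer cell or endothelium marker called, and 1 stellate cell and 1 red cell marker lower. Of the 8 hepatocyte markers, 2 were higher and 1 lower in that comparison. Under diet restriction against control 1 of the 8 was higher and 1 lower. In whole liver, fewer cells of a type and less RNA per cell cannot be told apart.

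**Figure D1:**
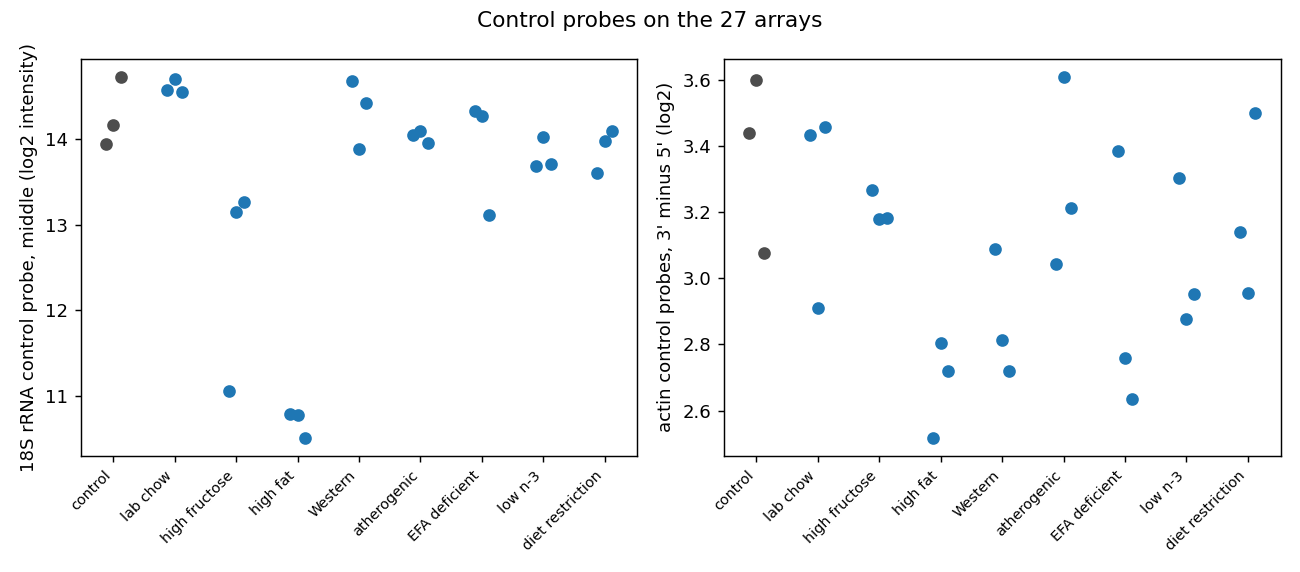
Log2 intensity of the middle 18S rRNA control probe (left) and log2 gap between the 3′ and 5′ actin control probes (right) on each of the 27 arrays, by diet, with control in grey. The 3 high-fat arrays lie between 10.52 and 10.80 for 18S, below all arrays of the other diets.

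Ribosomal protein genes were among the brighter genes on the arrays and varied less than most. Their median mean level was 13.25, against 8.12 over all kept genes, and all 42 were above the detection level on every array. The median SD within diets was 0.11 for members and 0.18 for all genes. The range between the highest and the lowest diet mean had a median of 0.47 for members and 0.67 for all genes. The median SE of a member's difference was 0.098, and the smallest difference called was 0.23, for Rpl6 between diet restriction and lab chow.

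Ribosomal protein messenger RNAs were lower than control on the 3 diets rich in fat, Western, high fat and atherogenic, and were highest under diet restriction. Of the 42 members, 22 had their lowest diet mean on the Western diet, 8 on the atherogenic diet and 6 on the high-fat diet. Diet restriction held the highest mean for 34 members. These counts were not made over all genes, of which 47.3% had an unadjusted limma p below 0.05 under diet restriction against control. The median member lay below the control mean by 0.19, 0.38 and 0.36 on the Western arrays, by 0.21, 0.25 and 0.21 on high fat, and by 0.17, 0.29 and 0.19 on atherogenic. It lay 0.07, 0.18 and 0.09 above the control mean on the diet-restriction arrays, and the 3 control arrays themselves lay between -0.04 and 0.04. The same medians over all genes stayed between -0.07 and 0.04 on every array.

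**Figure D2:**
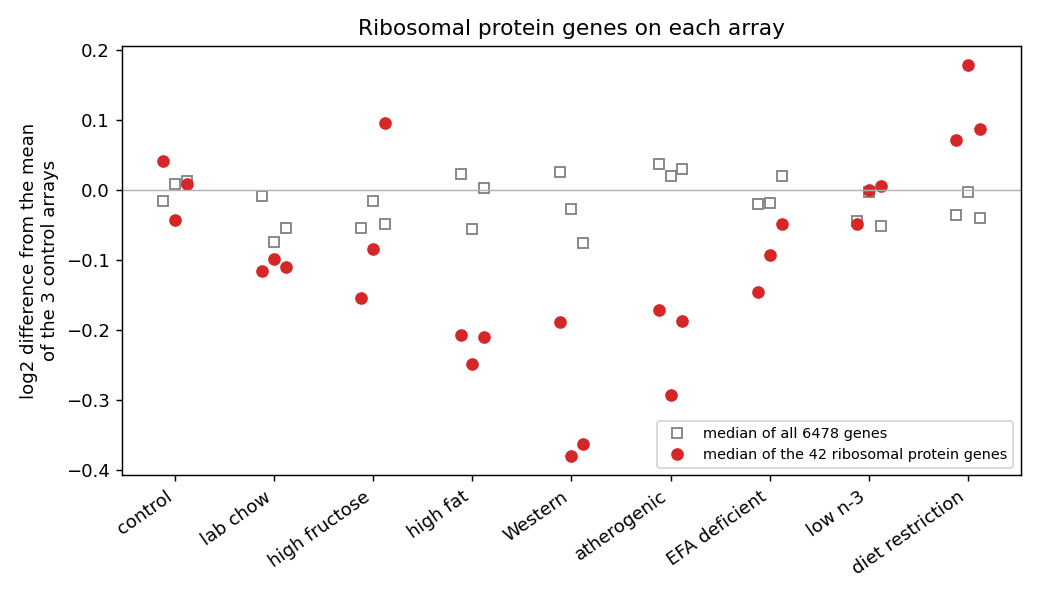
Median log2 difference from the mean of the 3 control arrays, for the 42 ribosomal protein genes (filled circles) and for all 6478 genes (open squares), on each array by diet. All arrays of the Western, high-fat and atherogenic diets lie between -0.38 and -0.17 for the ribosomal protein genes, below the control arrays, and the diet-restriction arrays lie between 0.07 and 0.18.

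Large and small subunit genes shifted in the same direction on every array of these 4 diets. On the Western arrays the median of the 21 large subunit genes was -0.18, -0.37 and -0.34 against the control mean, and that of the small subunit genes -0.20, -0.43 and -0.41. On high fat they were -0.14, -0.22 and -0.21 for the large and -0.22, -0.30 and -0.22 for the small subunit, and on atherogenic -0.17, -0.29 and -0.19 and -0.17, -0.28 and -0.17. Under diet restriction the medians were 0.07, 0.21 and 0.11 for the large subunit and 0.08, 0.16 and 0.07 for the small subunit. The difference between subunits was not tested.

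On the Western diet 23 of the 42 members fell and none rose, against 4.48% of all genes called lower and 4.31% called higher. Means below control were found for 41 of the 42, and the median difference was -0.32, against -0.03 over all genes. In 32 members all 3 Western arrays lay below all 3 control arrays, against 15.1% of all genes. Rpl22l1, Rpl37, Rpsa, Rps18 and Rps6 fell most among the called genes.

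Rpl22l1, the paralog of the large subunit protein Rpl22, read 12.46, 11.97 and 12.12 on the control arrays and 11.35, 11.05 and 10.76 on the Western arrays. The groups did not overlap, and the Western mean was 45.7% of control (log2 difference -1.13 ± 0.16 SE, adjusted p = 5.6e-05). Rpl37, a zinc finger protein of the large subunit, read 9.68, 9.66 and 9.32 on control and 8.97, 9.01 and 8.50 on Western, again without overlap, and was 60.5% of control (adjusted p = 0.0034). Rpsa, a small subunit protein that also serves as a laminin receptor, read 12.88, 12.57 and 12.78 on control and 12.44, 12.09 and 12.02 on Western. All Western values of Rpsa were the lower ones, at 67.8% of control (adjusted p = 0.0075). Rps18, at the head of the small subunit, was 69.2% of control (adjusted p = 0.0018). One of its 3 kept probes carried much of that, with a difference of -0.87 where the other 2 gave -0.37 and -0.35.

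Rps6, the substrate of S6 kinases, read 8.97, 8.86 and 8.87 on control and 8.57, 8.41 and 8.21 on the Western arrays. The values did not overlap and the mean was 70.6% of control (log2 difference -0.50 ± 0.09 SE, adjusted p = 0.00073). Rplp2, one of the acidic stalk proteins that recruit elongation factors, was 79.1% of control (adjusted p = 0.038), whereas Rplp0, the stalk's base, was 91.4% of control and was not called (95% interval of the log2 difference -0.39 to 0.13). Rpl11 was 0.22 below control and was not called. The other called genes, Rpl35, Rps20, Rpl13a, Rps24, Rps15, Rps19, Rps4x, Rps9, Rpl27, Rps26, Rpl38, Rpl6, Rps10, Rpl8, Rps14, Rpl37a and Rps28, lay between 70.8% and 84.1% of control. With each array left out in turn, 13 of the 23 calls held in every fit, and without Western replicate 2 the count was 15.

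**Figure D3:**
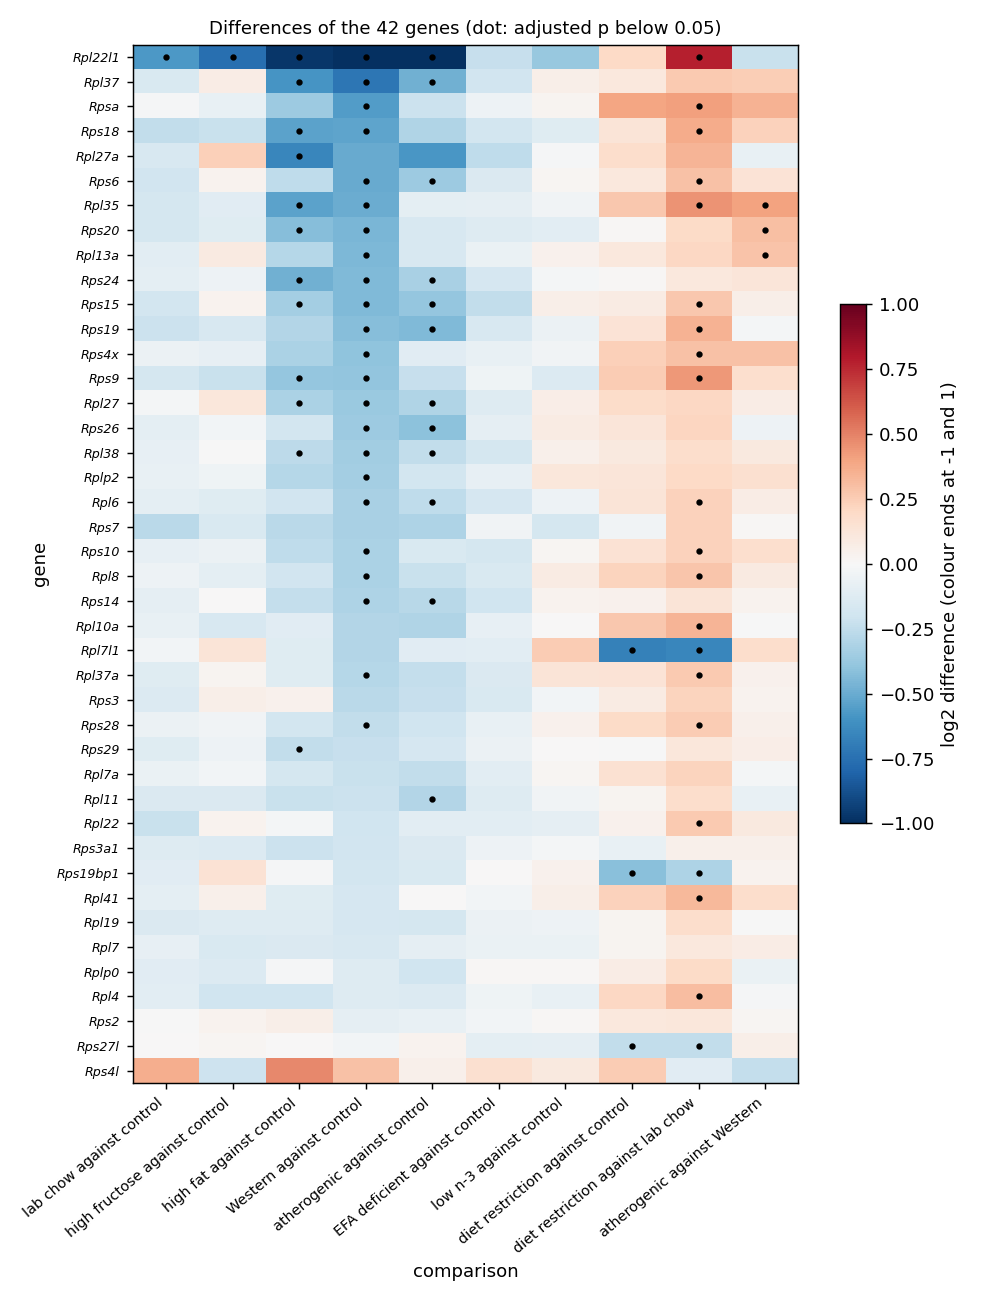
Log2 difference of each of the 42 genes (rows, ordered by the Western diet) in the 10 comparisons (columns), with a dot where the gene was called. The Western column holds 23 dots, all lower, and the column of diet restriction against lab chow holds 21, of which 18 are higher.

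On the high-fat diet 12 members fell and none rose, against 3.33% of all genes called lower and 6% called higher. The median difference was -0.23, against -0.02 over all genes, and 38 of the 42 means were below control. Rpl22l1 read 11.08, 11.02 and 11.53, below its 3 control values, and was 50.9% of control (adjusted p = 0.00031). Rpl35, a large subunit protein near the exit of the nascent chain, read 13.12, 13.11 and 13.18 against 13.73, 13.59 and 13.69 on control. The groups lay apart, at 69.1% of control (log2 difference -0.53 ± 0.10 SE, adjusted p = 0.0018).

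Rpl27a and Rpl37, both of the large subunit, and Rps18 were the other genes with the largest decreases, at 63.8%, 66.6% and 69.2% of control (adjusted p = 0.03, 0.016 and 0.0018). For Rps18 the same probe as on Western carried much of that, with -0.82 where the others gave -0.41 and -0.37. Rps24, Rps20, Rps9, Rps15, Rpl27, Rpl38 and Rps29 were called as well, between 71.7% and 84.2% of control. Rpl22 was not called, and its 3 probes disagreed, with differences of 0.57, -0.25 and -0.37. In 34 members all high-fat arrays were below all control arrays, against 16.3% of all genes. Leaving out each array gave 6 to 9 called members, 6 without control replicate 1, and 5 of the 12 calls held in every such fit. The arrays of this diet are also those with the low 18S signal. With the actin gap as a covariate, a choice made after the values were seen, 8 members were called lower on high fat, 4 of them among the 12, and 23 on Western, of which 20 were among the 23 above. The share of all genes called in that fit was not counted. The median of the members was -0.29 on high fat and -0.35 on Western in the same fit, against -0.23 and -0.32 without the covariate. No high-fat array had a gap within the control range, so the gap and this diet cannot be told apart.

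On the atherogenic diet 12 members fell and none rose, against 5.88% of all genes called lower and 9.03% called higher. The median difference was -0.22, against 0.03 over all genes. Rpl22l1 was at its lowest here, with 11.01, 10.58 and 10.92. No control value came near these, and the mean was 39.2% of control (log2 difference -1.35 ± 0.16 SE, adjusted p = 6.2e-06). Rps19, a small subunit protein mutated in Diamond-Blackfan anemia, read 12.92, 12.97 and 12.98 on control and 12.53, 12.44 and 12.57 on the atherogenic arrays. The groups did not overlap, and Rps19 was 73.5% of control (adjusted p = 0.006).

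Among the other genes with the largest decreases, Rps26 was 75.1%, Rps15 76.6% and Rpl37 71.7% of control. Rps6, Rps24, Rpl27, Rpl11, Rps14, Rpl6 and Rpl38 were also called, between 77.6% and 84.4%. With each array left out in turn, 4 of the 12 calls, those of Rpl22l1, Rps19, Rps15 and Rps26, held in every fit, and the count lay between 5 and 9. It was 5 without control replicate 1 and without atherogenic replicates 1 or 2. When arrays were centred on their medians, 19 members were called, all lower, and the share of all genes called was not counted there.

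The atherogenic diet, which holds more cholesterol than the Western diet and also cholic acid, was compared directly with the Western diet. On the atherogenic diet 3 members were higher and none lower, against 11.3% and 6.5% of all genes, and the median difference was 0.07, against 0.05 over all genes. The share of members called was thus below that of all genes. Rpl35 read 13.67, 13.44 and 13.61 on atherogenic and 13.43, 12.98 and 13.11 on Western arrays. The highest Western value lay just below the lowest atherogenic one, and the atherogenic mean was 132% of Western (adjusted p = 0.0098). Its 5 probes differed in their atherogenic values against control, from -0.33 to 0.11. Rps20 was 123.1% and Rpl13a 121.7% of Western. None of the 3 calls held with every array left out in turn, and the count was 0 without Western replicate 2 or atherogenic replicate 1 and 7 without Western replicate 1.

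Lab chow, high fructose, EFA deficiency and the low n-3 diet had few or no called members. On lab chow 1 member fell, against 2.19% of all genes lower and 2.02% higher, although 40 of the 42 means were below control, with a median of -0.11 against -0.05 over all genes. In 22 members all lab chow arrays lay below all control arrays, against 15.1% of all genes. On high fructose 1 member fell, against 2.73% of all genes lower and 1.17% higher. The single gene was Rpl22l1 on both diets. It read 11.62, 11.48 and 11.73 on lab chow and 11.29, 11.37 and 11.62 on high fructose, all below its control values, at 67.2% and 59.2% of control (adjusted p = 0.025 and 0.0037). The lab chow call was lost when control replicate 1 or 3 or lab chow replicate 1 or 2 was left out. The high-fructose arrays differed among themselves, with member medians of -0.15, -0.08 and 0.10, the lowest on the replicate with the low 18S signal.

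No member was called on the EFA-deficient diet, against 3.04% of all genes higher and 2.47% lower. An unadjusted limma p below 0.05 was reached by 3 members, Rps15, Rps14 and Rpl38, all lower, against 18.9% of all genes. Means below control were found for 39 of the 42, with a median of -0.10 against -0.01 over all genes. No member was called on the low n-3 diet either, against 0.34% higher and 0.726% lower. There Rpl22l1 alone had an unadjusted p below 0.05, with a difference of -0.38 ± 0.16 SE, against 10% of all genes, and 23 of the 42 means were above control. By Dunnett's test per gene, 2 of the 42 members were called on the EFA-deficient diet and 0 on low n-3. That test was run on the members alone, with no adjustment over genes and no share of all genes to set beside it.

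Under diet restriction 3 members fell against control and none rose, against 16% of all genes called lower and 13.5% called higher. The share of members called was below the background in both directions. The means of 36 of the 42 members were nevertheless above control, with a median of 0.11 against -0.03 over all genes. All 3 arrays were above all control arrays in 12 of the 42, a share near the 22.3% of all genes. An unadjusted p below 0.05 was reached by 11 of the 42, 8 of them higher, a share below the 47.3% of all genes in either direction. With p adjusted within this comparison alone 5 rose and 3 fell. With arrays centred on their medians 1 rose and 2 fell, and with shared probes added, as described below, 3 rose and 3 fell. The share of all genes called was not counted in these alternative runs. Rpsa had the largest increase, with 13.02, 13.23 and 13.17, all above its control values, at 131.6% of control (adjusted p = 0.059).

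The 3 members that fell were Rpl7l1, Rps19bp1 and Rps27l. Rpl7l1, a nucleolar relative of Rpl7, read 7.41, 7.59 and 7.42 under restriction and 7.85, 8.31 and 8.27 on control. The groups lay apart, and the mean was 62.6% of control (log2 difference -0.68 ± 0.13 SE, adjusted p = 0.0014). Its 3 probes all fell, by 0.43, 0.79 and 0.80. Rps19bp1, which binds Rps19, read 8.05, 8.16 and 8.06 against 8.36, 8.65 and 8.51 on control. These did not overlap either, at 74.8% of control (adjusted p = 0.028). Rps27l, a p53-responsive paralog of Rps27, read 13.26, 13.19 and 13.29 against 13.49, 13.53 and 13.45. All restriction values were the lower ones, at 84.3% of control (adjusted p = 0.034). The Rpl7l1 call held with each array left out, while those of Rps19bp1 and Rps27l were lost in 4 and 5 of 6 such fits, and the count fell to 1 without control replicate 2 or 3.

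Rpl7 itself, with 3 kept probes, was 101.9% of control under diet restriction (95% interval of the log2 difference -0.16 to 0.22). Rpl22, the partner of Rpl22l1, was not called on any diet against control, and on the atherogenic diet it was 93.1% of control (95% interval -0.31 to 0.11). Rps4x fell to 75.5% of control on Western, whereas its relative Rps4l, at an SD within diets of 0.45, ranged from 7.89 to 9.71 over the 27 arrays and was never called. The differences between paralogs were not tested.

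**Figure D4:**
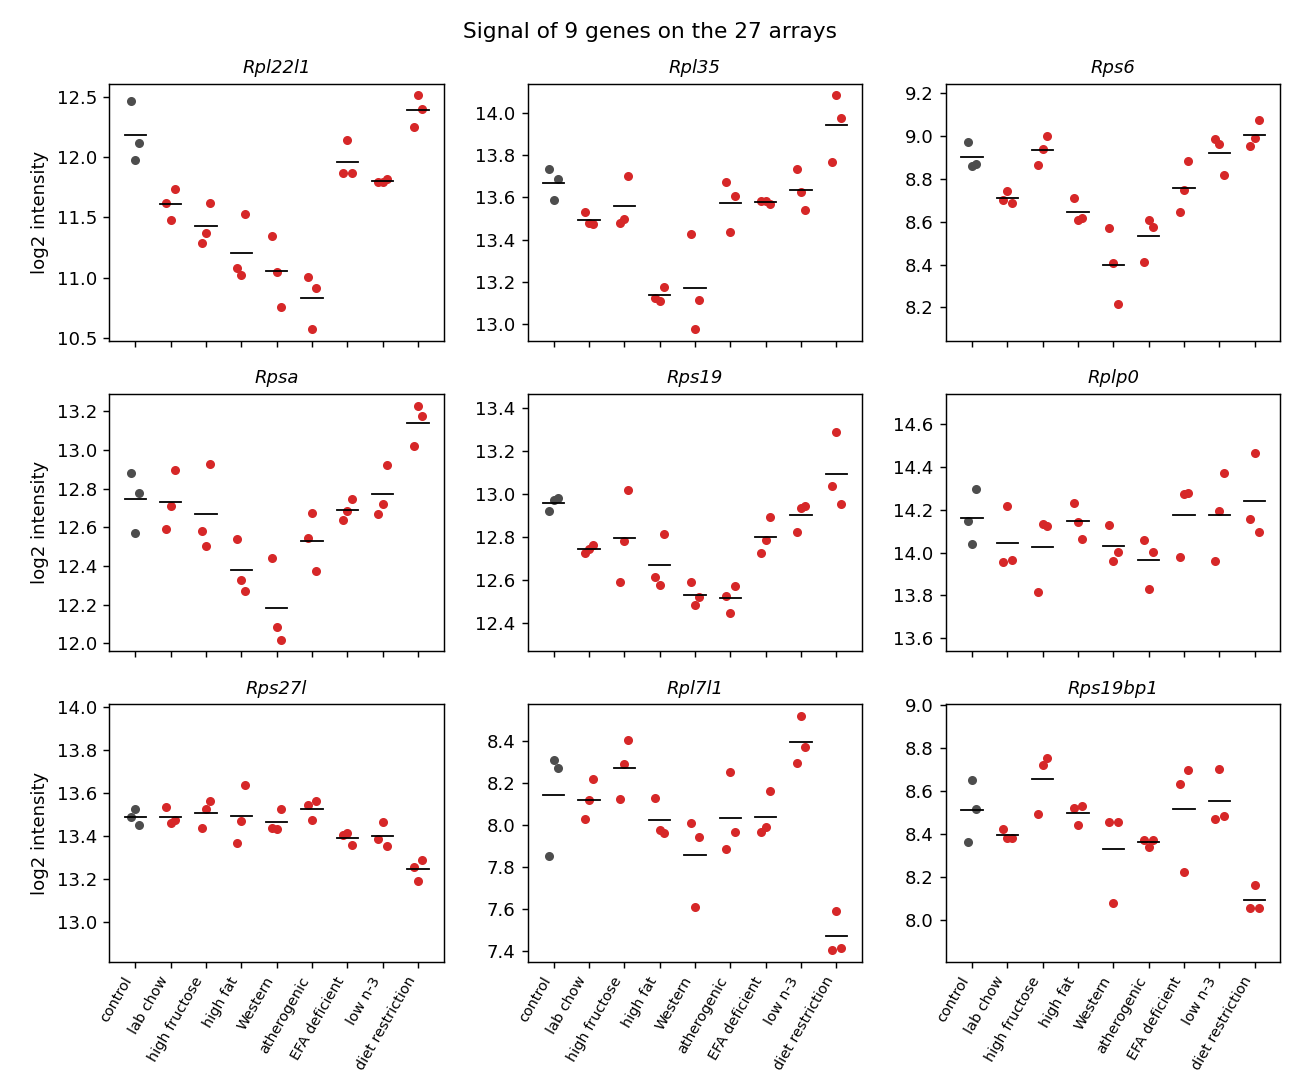
Log2 intensity of 9 genes on each of the 27 arrays, by diet, with a line at each diet's mean and control in grey. Rpl22l1 lies between 10.58 and 11.53 on the 3 fat-rich diets, and Rpl7l1 between 7.41 and 7.59 under diet restriction, each below its 3 control arrays.

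Against lab chow, the diet that was restricted, 18 members rose and 3 fell under diet restriction, with 19.2% of all genes higher and 17.6% lower. The median was 0.23 against 0.01 over all genes, and 38 of the 42 means were higher. In 31 members every restricted array was above every lab chow array, against 25.3% of all genes. Rpl22l1 read 12.25, 12.51 and 12.40 under restriction, above all 3 lab chow values, at 171.2% of lab chow (log2 difference 0.78 ± 0.16 SE, adjusted p = 0.00068). Rpl35 read 13.77, 14.08 and 13.98 against 13.53, 13.48 and 13.47 on lab chow. Every restricted value was higher, at 136.4% of lab chow (adjusted p = 0.002).

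Rps9, Rpsa and Rps18, all of the small subunit, were 134.7%, 132.8% and 129.5% of lab chow (adjusted p = 0.0054, 0.018 and 0.0075). The kept probes of Rps9 gave 0.62 and 0.24, and those of Rps18 0.29, 0.32 and 0.52. Both of these calls were lost when the brightest probe per gene replaced the mean. Rps19, Rpl10a, Rpl41, Rpl4, Rps6, Rps4x, Rpl8, Rps15, Rpl22, Rpl37a, Rps28, Rps10 and Rpl6 rose by less, to between 117% and 127.5%. The 3 members that fell were again Rpl7l1, Rps27l and Rps19bp1, at 63.7%, 84.3% and 80.9% of lab chow. With each array left out in turn, 10 of the 21 calls held in every fit, and the count lay between 11, without diet restriction replicate 2, and 19. Mean levels on this diet come from the same 3 arrays as in the comparison with control.

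The start regions of the genes that varied most between diets, and of those that fell under diet restriction, were searched for runs of pyrimidines. The TOP motif lies at the 5′ end of the messenger RNA, whereas a run was counted anywhere in the window. Annotated starts may also be off by some bases, so the windows cannot show whether a gene carries or lacks the motif. Each line gives 60 bases of the RefSeq window in GRCm38.p6, 30 before and 30 from the annotated start, 5′ to 3′ on the gene's strand, with the longest run of C and T in capitals, or the first where runs tie. The windows lie at chr3:28805478-28805537 for Rpl22l1, chr9:120127736-120127795 for Rpsa, chr17:46782627-46782686 (minus strand) for Rpl7l1, chr7:109519165-109519224 for Rpl27a, chr15:5116583-5116642 for Rpl37, chr2:39005102-39005161 (minus strand) for Rpl35, chr17:33955636-33955695 (minus strand) for Rps18, chr15:80264277-80264336 (minus strand) for Rps19bp1 and chr9:66946056-66946115 for Rps27l.
Rpl22l1: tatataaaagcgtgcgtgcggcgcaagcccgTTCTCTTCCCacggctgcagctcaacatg
Rpsa: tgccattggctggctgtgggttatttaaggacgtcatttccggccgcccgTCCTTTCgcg
Rpl7l1: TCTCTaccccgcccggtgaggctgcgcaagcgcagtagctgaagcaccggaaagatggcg
Rpl27a: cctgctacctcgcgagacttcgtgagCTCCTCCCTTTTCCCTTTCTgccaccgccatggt
Rpl37: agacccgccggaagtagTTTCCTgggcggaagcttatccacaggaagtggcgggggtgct
Rpl35: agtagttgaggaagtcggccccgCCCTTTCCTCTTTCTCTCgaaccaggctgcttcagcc
Rps18: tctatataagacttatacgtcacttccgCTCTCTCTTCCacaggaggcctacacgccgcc
Rps19bp1: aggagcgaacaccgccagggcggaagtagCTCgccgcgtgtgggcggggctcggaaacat
Rps27l: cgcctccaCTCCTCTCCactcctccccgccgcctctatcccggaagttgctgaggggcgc

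Runs of 20, 18 and 11 pyrimidines span the annotated start in Rpl27a, Rpl35 and Rps18, and a run of 10 follows it in Rpl22l1. The longest runs were 7 bases in Rpsa, 6 in Rpl37, 5 in Rpl7l1 and 3 in Rps19bp1, and Rps27l has a pair of runs of 9 bases before the start. Runs under 9 bases stood both in members that fell on Western and in members that fell under diet restriction. An entry was given for 44 of the 50 members, without Rpl7, Rpl8, Rps14, Rps20, Rps29 and Rps4l, and the first entry of a gene was used. A run of at least 9 letters of C or T within these 60 bases was found on the sense strand in 21 of the 44, or 47.7%, against 15.4% of all 27025 genes with an entry. The motif CCGGAAG, which ETS factors are known to bind, stood on either strand of the 300-base window in 21 of the 44 members, or 47.7%, against 9.12% of all genes. The motif TATAAA was found in 11.4% of members and 14.2% of all genes. The 16 kept members with such a run had a median difference of -0.38 on the Western diet and -0.27 on high fat, and the 20 without one -0.29 and -0.16. For diet restriction against lab chow the medians were 0.22 with and 0.24 without a run, and none of these differences was tested.

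Other parts of the translation machinery were examined by gene lists, whose differences from the ribosomal proteins were not tested. Of 21 elongation factors and other genes with a TOP motif, 5 fell on the Western diet, against 4.48% of all genes called lower. Among them were Eef2, the factor that moves the ribosome along, with a difference of -0.43 (adjusted p = 0.0067), and Eif4b, with -0.45 (adjusted p = 0.016). On Western 4 of the 21 were above control. The median of the 21 was -0.22 there and 0.10 for diet restriction against lab chow. In that comparison 6 rose, including Eef2 by 0.37, against 19.2% of all genes called higher. Fau, whose product holds the small subunit protein eS30, is a ribosomal gene that the symbol rule leaves out. It fell by 0.45 on Western and 0.35 on atherogenic and rose by 0.39 under diet restriction against control (adjusted p = 0.004, 0.023 and 0.013).

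Of 22 translation initiation factors, 1 rose on Western and 2 on high fat, the first being Eif5, which acts in start codon selection, with a difference of 0.60 (adjusted p = 0.0088), against 4.31% and 6% of all genes called higher on these diets. Of 50 detected ribosome biogenesis genes of 62, 4 fell on Western and 4 on high fat, against 4.48% and 3.33% of all genes called lower. Their medians were -0.20 and -0.21, and 9 and 10 of the 50 were above control. Rpf2, which loads the 5S particle with Rpl5 and Rpl11, fell on Western, high fat and atherogenic, with differences of -0.46, -0.39 and -0.40 (adjusted p = 0.012, 0.032 and 0.027). Under diet restriction against lab chow 9 of these 50 biogenesis genes rose and 2 fell, a share of rising genes close to the 19.2% of all genes. Nucleolin (Ncl) was higher by 1.07 and nucleophosmin (Npm1) by 0.57. Of 14 detected genes of RNA polymerases I and III, 2 fell on Western. Under diet restriction against control 4 rose and 2 fell, against 13.5% and 16% of all genes. Maf1, the repressor of polymerase III, rose by 0.83 there, while Polr3k, a polymerase III subunit, fell by 1.16.

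Upstream of the ribosome, diet restriction raised Ddit4, an inhibitor of mTORC1, by 4.50 against control, the largest change among 15 detected genes of mTORC1 and growth signaling. Of the 15, 4 rose and 3 fell, against 13.5% of all genes called higher and 16% called lower. Larp1, which binds TOP messenger RNAs, fell by 0.42 (adjusted p = 0.02). Of 10 detected genes of the amino acid deprivation response, 2 fell on each of Western, high fat and atherogenic, against 4.48%, 3.33% and 5.88% of all genes. Atf4, the central factor of this response, fell by 0.74, 0.86 and 0.76 on these diets (adjusted p = 0.0076, 0.0022 and 0.0067). Asns, asparagine synthetase, fell by 2.34 on Western. The list as a whole was not lower, with medians of 0.11, 0.15 and -0.04, and 6, 6 and 5 of the 10 genes were above control. Under diet restriction 4 of these 10 genes rose, with Trib3 higher by 2.16, and 2 fell, against 13.5% and 16% of all genes. Among 14 detected tRNA synthetases of the cytosol, Tars and Sars fell under diet restriction, by 1.51 and 0.36, a share close to the 16% of all genes called lower. Of the 3 detected p53 targets, Ccng1 rose by 0.39 on the atherogenic diet and fell by 0.41 under diet restriction, and Sesn1, which also stands among the signaling genes, fell on Western and low n-3 and rose under restriction.

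The 76 mitochondrial ribosomal proteins, which serve the separate ribosome of the mitochondrion, followed another order of diets. On Western 1 rose and 1 fell, with a median of -0.04. On high fat 11 rose and none fell, against 6% of all genes called higher, with a median of 0.10. On the atherogenic diet 21 fell and 1 rose, against 5.88% and 9.03% of all genes, with a median of -0.21. Mrps24 had the smallest adjusted p there, at 0.00018, with a difference of -0.45. The difference between the cytosolic and mitochondrial sets was not tested. Beside these, 4 of the 9 detected Kupffer cell markers rose on the atherogenic diet, and all 9 were higher there than on Western.

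**Figure D5:**
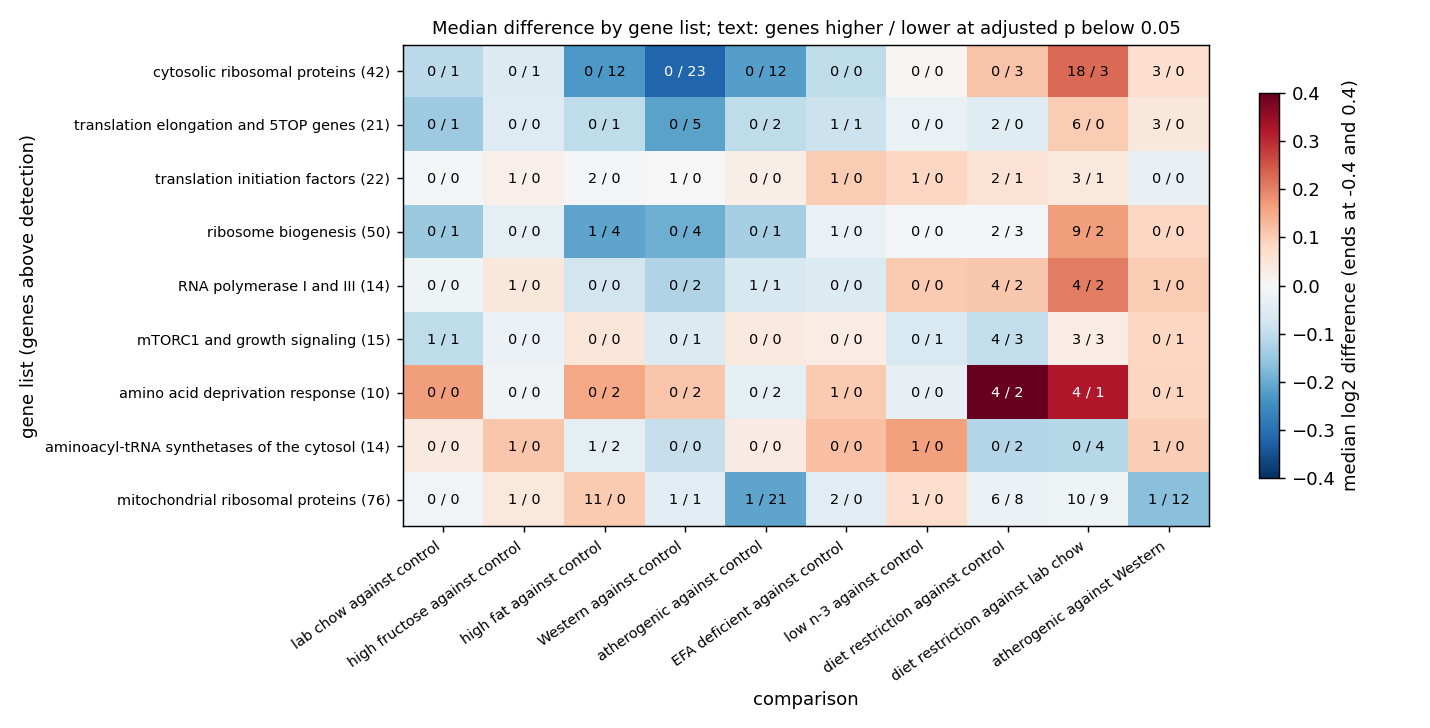
Median log2 difference (colour) of the 42 cytosolic ribosomal protein genes and 8 other gene lists in the 10 comparisons, with the number of genes called higher and lower in each cell. The cytosolic ribosomal proteins have 0 higher and 23 lower on the Western diet, and the 76 mitochondrial ribosomal proteins 1 and 1.

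Many ribosomal protein probes also match other sequences, since the genome holds numerous processed copies of these genes. Of the 79 kept member probes, 66 carried a suffix (_x_at, _s_at or _a_at) that marks a probe set matching several transcripts. For _a_at these are transcripts of the same gene, so the 66 do not count probes that match other genes. A further 110 probes list a member symbol together with another symbol, mostly of predicted genes, and were outside the rule, which left 31 member symbols, Rpl3, Rpl5, Rpl10 and Rplp1 among them, on shared probes alone. Shared probes were also added where they name 1 member, a choice made after the values were seen. Of the 73 member genes then tested, 45 fell on Western, 30 on high fat and 29 on atherogenic. Under diet restriction against lab chow 36 rose. The share of all genes called in that fit was not counted. Of the 31 genes added, all were below control on Western, 21 of them called, with a median of -0.34. Rpl3, at the peptidyl transferase center, was then 68.1% of control on Western (adjusted p = 0.0018), while Rpl5 was 91.2% and was not called. Under diet restriction against control 3 of the added genes rose, Rpl5 to 172.9%, Rpl36 to 127% and Rpl29 to 119.9% (adjusted p = 6.6e-05, 0.045 and 0.04). Without all probes that carry such a suffix, 11 members were left, of which 3 fell on Western. Their median was -0.23 on Western and -0.14 on high fat, against -0.32 and -0.23 in the main fit. On atherogenic it was -0.20 against -0.22. On each of these diets 10 of the 11 were below control. The main medians cover more genes, so the smaller values cannot be laid to the choice of probes alone.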

How the data were processed

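Liver RNA of 27 mice was measured on 27 arrays, 1 per mouse. The authors corrected the background and normalized with GCRMA before deposit, so the deposited table holds log2 intensities, and nothing was rescaled here. Their own limma comparisons were not used. Arrays were grouped by their labels. The platform's annotation paired probes with genes, and gene values came from the 34958 of 45101 probes with 1 symbol. The filter on low signal required a diet mean above log2(100), following the study's methods. Genes were tested in limma 3.58.1 under R 4.3.3 with the data.table package (1.17.8), by Benjamini-Hochberg adjusted p at 0.05. The scripts were checked on artificial data.

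The members, the gene lists and the rule for named genes were chosen with earlier results of these data known. That rule took, per comparison, up to 5 called members with the largest increase and up to 5 with the largest decrease, the 8 members with the widest range of diet means, and paralogs and members with other roles, with up to 4 called genes per list. Alternatives were other p adjustments, filters, priors, normalizations and probe choices, a fit of 2 groups alone, a replicate block, Dunnett's test (multcomp 1.4.28) and each array left out. No pair of arrays was identical (highest correlation 0.98947). Start regions came from RefSeq, GRCm38.p6. Python 3.11.15 with pandas 2.3.3, numpy 2.4.6 and matplotlib 3.10.9 made the figures. The number of arrays limits the precision.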

Additional observations from a re-analysis of the deposited data

How the results depend on the processing

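No call of a single member reversed its direction under any alternative run, and the calls of Rpl22l1 on high fat, Western and atherogenic held in all of them except without suffixed probes, where its 1 probe is left out. The share of all genes called was not counted in any alternative run. Counts of called members moved by more than 1.5 times in these cases. With p adjusted within each comparison, 0 were called on lab chow and 8 under diet restriction against control. With no filter on low signal 0 were called on lab chow. A fit of the 2 groups alone, on 6 arrays, called 0 on lab chow, 7 on high fat, 2 on Western, 2 on atherogenic, 0 under diet restriction against control, 9 against lab chow, and 0 for atherogenic against Western. A trend and robust prior called 1 on EFA deficient and 5 under diet restriction against control. With arrays centred on their medians 19 were called on atherogenic and 1 for atherogenic against Western, and with the brightest probe per gene 7 on atherogenic.

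Without probes that carry a suffix, where 11 members remained, 0 were called on lab chow, 0 on high fructose, 2 on high fat, 3 on Western, 2 on atherogenic, 4 under diet restriction against lab chow and 0 for atherogenic against Western. Dunnett's test per gene, run on the members alone with no adjustment over genes, called 21 on high fat and 19 on atherogenic. It called 2 on EFA deficient and 6 under diet restriction. With shared probes added, where 73 genes were tested, 30 were called on high fat, 45 on Western, 29 on atherogenic, 1 on EFA deficient, 6 (3 higher and 3 lower) under diet restriction against control and 39 against lab chow.

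Leaving out each array in turn gave 0 to 1 called members on lab chow, 6 to 9 on high fat, 15 to 26 on Western, 5 to 9 on atherogenic, 1 to 3 under diet restriction against control, 11 to 19 against lab chow and 0 to 7 for atherogenic against Western. The cause of these shifts was not tested, other than fewer arrays or genes where the setting itself removes them. The median of the members changed sign for atherogenic against Western with arrays centred (-0.01) or without suffixed probes (-0.0019), for high fructose with arrays centred (0.01) or without replicate 1 (0.0046), and for low n-3 in 5 settings, with values from -0.03 to -0.01. It kept its sign elsewhere, although without suffixed probes it was smaller in size on high fat (-0.14) and Western (-0.23).

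Replicate numbers do not pair the arrays. Deviations of arrays with the same number correlated from -0.165 to 0.235, over 0.1 in 6 of 24 cases. With the number as a block, 22 members were called on Western, 13 on high fat, 10 on atherogenic and 19 for diet restriction against lab chow, and the other counts equalled the main ones.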
